A study of Drosophila melanogaster with 4 samples.

Results

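The piRNA pathway genes examined here are 36 genes chosen by name, and all 36 were matched to gene identifiers among the 17559 genes counted in testes of Drosophila melanogaster. They encode the Piwi proteins, proteins of nuage with their Tudor domain partners, an arginine methyltransferase pair, factors that transcribe piRNA clusters, factors that silence transposons in the nucleus, and factors that make and finish piRNAs on mitochondria and in Yb bodies. All 36 passed the filter on low counts, as did 10854 genes in all. Poly(A) RNA was sequenced from testes of 2 genotypes in which early germ cells overproliferate, with 2 libraries each. In Caf40KD males, genotype Caf40RNAi(BL67987)/nosGAL4, a hairpin against Caf40 was expressed under nosGAL4, a driver active in early germ cells, and the Caf40 protein belongs to the CCR4-NOT complex that removes poly(A) tails and is bound by Bam. The reference males carried 2 mutant alleles of bam, bam1/bam86, and bam is the gene that switches spermatogonia from proliferation to differentiation. The study made the comparison to check the knockdown of Caf40.

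Caf40KD flies grew at 25 °C for 3 days, were then moved to 29 °C, and were dissected 0 to 2 days after eclosion. The bam flies grew at 22 °C up to pupal stages, received 30 minutes at 37 °C without any heat shock construct, returned to 25 °C, and were dissected 48 hours later. Each library pooled 150 pairs of testes. According to the study's methods the dissected tissue included the seminal vesicle, the driver strains carried a UAS transgene of Dicer-2, and the bam males carried CyO. The headings of a deposited table of normalised counts name the bam libraries as wild type at 0 hours after heat shock, against bam mutant at 48 hours in the labels, which were followed here. The bam transcript was at 267 and 249 CPM in the Caf40KD libraries, against 20.8 and 20.7 CPM in the bam libraries, where CPM are counts scaled to a common library total. Genotype therefore cannot be told apart from temperature, heat shock, strain background or constructs. The labels do not say whether the libraries of a group came from separate crosses, so p-values measure only the spread between these libraries.

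Piwi proteins are Argonaute family proteins that carry small RNAs called piRNAs and use them to recognise transposon transcripts by base pairing. In the cytoplasm, 2 of them cut transposon RNA and cluster RNA in turn and so amplify piRNAs, whereas the nuclear member directs heterochromatin to transposon insertions. In the Drosophila testis the pathway is best known for piRNAs from the Suppressor of Stellate repeats, which silence the Stellate genes and so protect male fertility.

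Gene counts summed to 30411385 and 26984758 in the Caf40KD libraries, against 118209171 and 95125694 in the bam libraries, and every piRNA pathway gene had between 328 and 45498 counts in each library. A gene listed at 0 counts could hold up to 3 counts at 95% confidence, which equals 0.0997 and 0.103 CPM in the Caf40KD libraries and to 0.0265 and 0.0322 in the bam libraries. Caf40, annotated as Rcd-1, stood at 13.5 and 16.2 CPM in the Caf40KD libraries, against 204 and 207 in the bam libraries. The summed level of 11 accessory gland genes was 398 and 45.7 CPM in the Caf40KD libraries, against 9.82 and 2.69 in the bam libraries, which set Caf40KD replicate 1 apart. The summed level of spermatid genes was 4.35 and 138 CPM, against 9.53 and 11.2, which set Caf40KD replicate 2 apart. Of the 7 heat shock genes tested 5 were called higher, led by Hsp68 (2.12), Hsp26 (1.23) and Hsp83 (0.64) on the log2 scale, and stv was called lower (-0.95). Genes that driver or hairpin constructs can carry also differed, with w (4.85), nos (0.68) and Dcr-2 called higher and v (-1.96) called lower.

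As a group, transcripts of the piRNA pathway took a larger part of the RNA in Caf40KD testes. The 36 genes together held 0.656% and 0.650% of the gene counts in the Caf40KD libraries, against 0.401% and 0.405% in the bam libraries. CPM values here are scaled with TMM, the trimmed mean of M-values, and changes are log2 fold changes of Caf40KD over bam. In edgeR's quasi-likelihood test, at an adjusted p threshold of 0.05 over all genes tested, 31 of the 36 were called higher, 1 was called lower and 4 were not called. Among all genes tested 30.7% were called higher, 33.0% lower and 63.7% in either direction. The median log2 fold change of the 36 genes was 0.60, from -0.44 for TfIIA-S-2 to 1.54 for Hen1, beside a median of 0.03 over all genes tested. Libraries of the groups did not overlap for 33 of the 36 genes, 31 of them higher in Caf40KD, and 83.4% of all genes tested showed such separation.

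**Figure D1:**
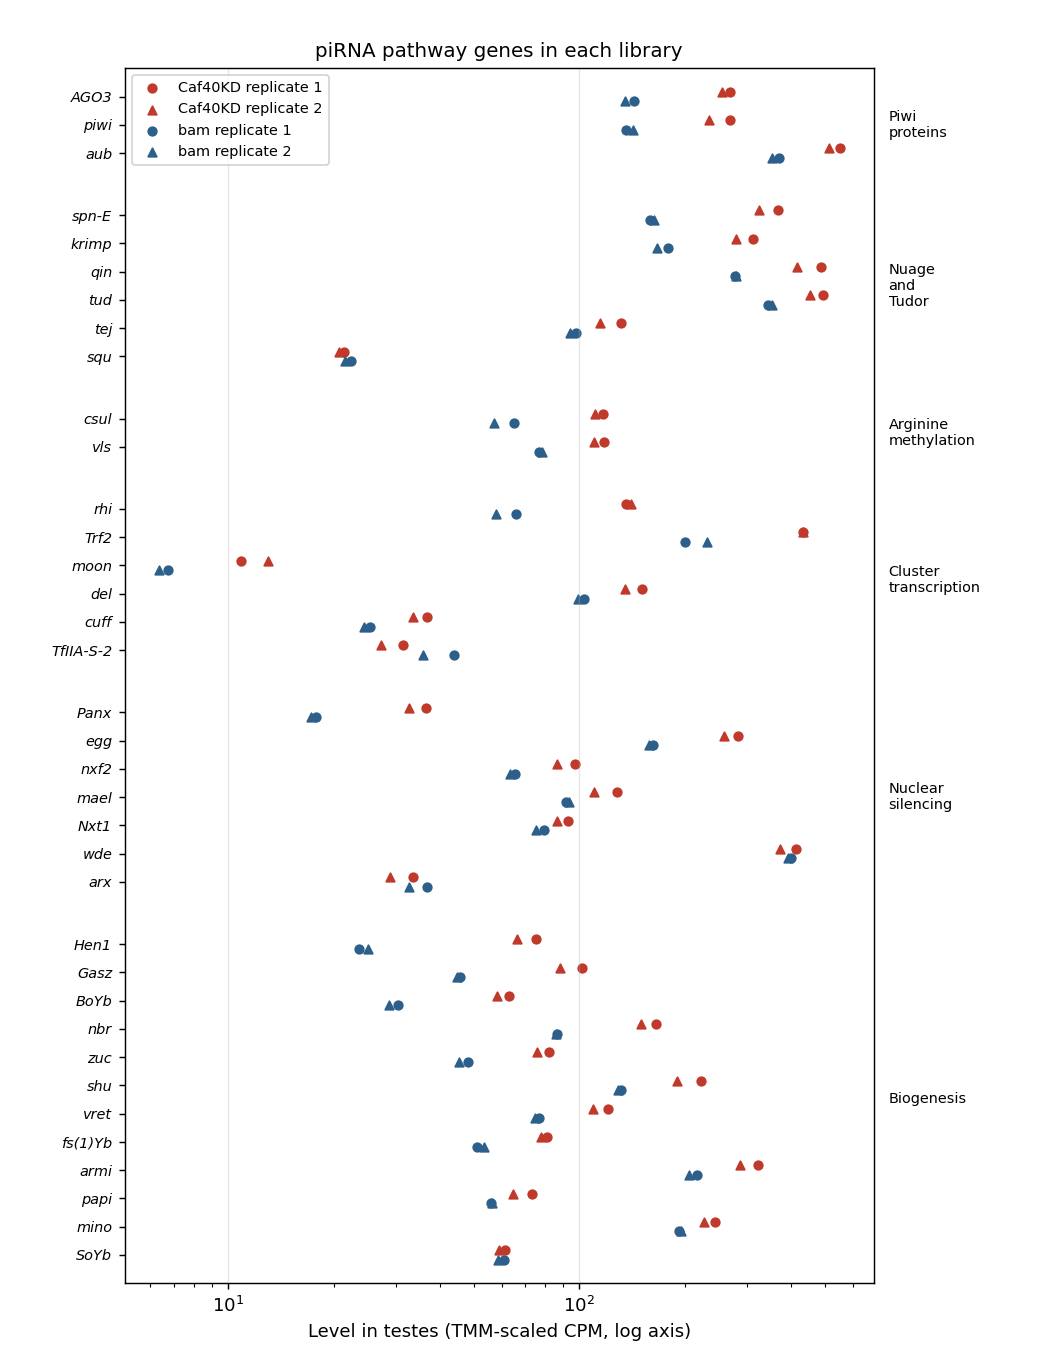
Level of each piRNA pathway gene in each library, in TMM-scaled CPM on a log axis, grouped by role and sorted within each role by log2 fold change. Red points are the 2 Caf40KD libraries and blue points the 2 bam libraries. Red points lie to the right of blue ones for 31 genes. For arx, wde and SoYb the groups overlap, and for squ and TfIIA-S-2 the red points lie to the left.

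The changes were modest and even beside the rest of the transcriptome. Their SD over the 36 genes was 0.41 on the log2 scale, against 1.52 over all genes tested and 1.07 over the 7255 genes with a mean level between 5 and 600 CPM, and 6 of the 36 were called at a change of 1 or more on that scale. The changes ran with those of other germline genes. All 11 germline markers tested, none of them a piRNA pathway gene, were called higher, with a median of 0.61 and a range from 0.32 for Phf7 to 1.70 for stai, a stathmin, followed from the top by otu (1.36), ovo (0.93) and stil (0.90). Of the 36 piRNA pathway genes, 28 lay inside that range, 8 below it and 0 above it. The germline marker vas was also listed, but its identifier was not among those counted. Among markers of somatic cyst and hub cells 8 of 10 were called lower, with a median of -1.18, led by eya (-1.87), Fas3 (-1.77), hh (-1.70) and so (-1.35). Among muscle sheath markers 7 of 9 were called lower, with a median of -0.87, led by Tm2 (-1.03), Mf (-0.98), Mlc1 (-0.93) and up (-0.91). Spermatocyte genes moved in both directions, with 6 of 12 called higher and 1, rye (-0.94), lower, a median of 0.23 and the largest increases in can (1.42), tomb (0.85) and aly (0.84). Of 10 spermatid genes 1 was called, Mst84Dc, and their median of 3.29 comes with the split between the Caf40KD libraries given above. The part of these other cells in the changes of the piRNA pathway genes was not tested. In bulk tissue a larger number of germ cells and more of an RNA per germ cell cannot be told apart.

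A second fit therefore scaled the libraries to the germline markers, so that a change there is a change relative to those markers. With it the median over all genes moved by -0.66 on the log2 scale, and 6.67% of all genes tested were then called higher and 64.6% lower. On that scale 11 of the piRNA pathway genes were called higher, 14 lower and 11 not at all, with a median of -0.05. Each library was also divided by the geometric mean of the same markers, a comparison of libraries without a test. By it 10 genes were higher without overlap, 21 lower without overlap and 5 overlapping. With TMM scaling 83.4% of all genes tested separated, and no such share is given for this ratio, so separation alone does not set these genes apart. On that ratio the log2 differences lay below the values of the second fit for all 36 genes, by nearly the same amount. Among them were Hen1 (0.74), rhi (0.36), AGO3 (0.12), nbr (0.08) and piwi (0.06). Values relative to the markers thus depend on how the markers are summarised, and those quoted below are from the fit unless stated. The difference between the median of the 36 genes and the median of all genes was 0.57 on both scales. This had to be so, because a new scaling moves all genes by nearly the same amount, so it adds no evidence. For 11 genes the call was the same under every scaling, filter, test and omission of 1 library, each tried alone. They were piwi, AGO3, spn-E, csul, rhi, Trf2, Panx, Gasz, BoYb, Hen1 and nbr, higher in Caf40KD each time. These are also the 11 genes called higher on the germline scale, and the 10 higher by the ratio are the same genes without csul. Calls on the germline scale took the scaling factor as exact, although changes of the markers ran from 0.32 to 1.70. The germline scaling was fitted with all libraries only, so its calls were not tried with a library left out. How many of all genes tested kept the same call throughout is not given.

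**Figure D2:**
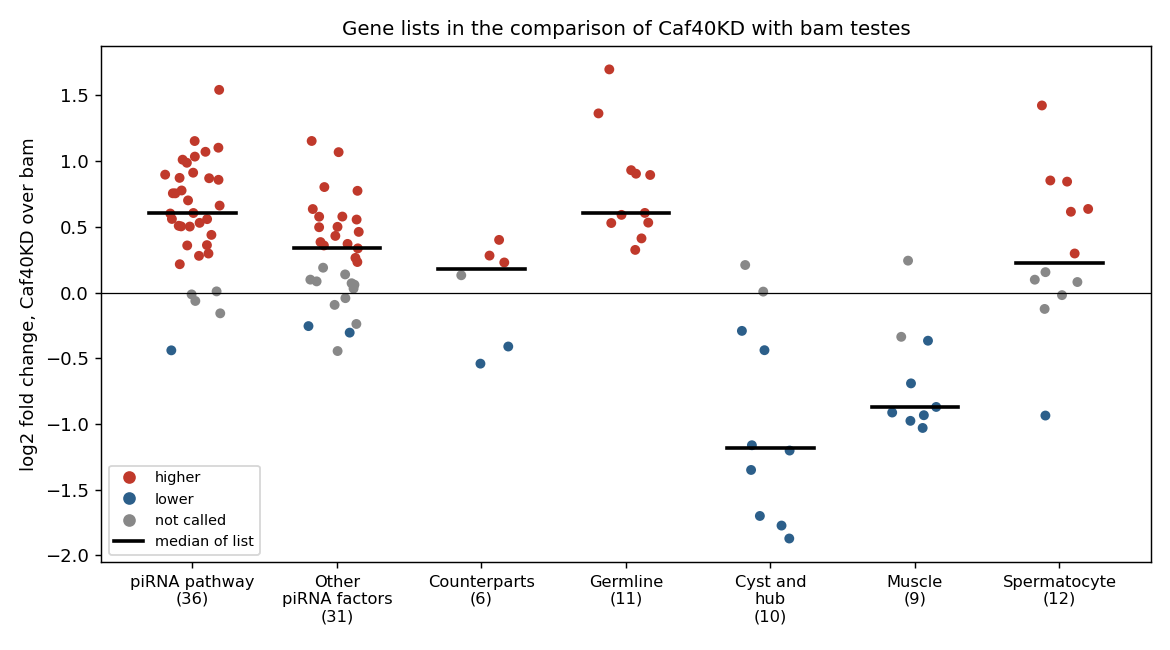
Log2 fold change of Caf40KD over bam for the tested genes of 7 lists, with TMM scaling. Each point is a gene, red where called higher, blue where called lower and grey where not called, and the bar is the median of the list. The piRNA pathway genes (median 0.60) lie at the height of the germline markers (0.61), above the other piRNA factors (0.34) and above the cyst and hub markers (-1.18).

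The Piwi proteins all rose. Nuclear Piwi is guided by piRNAs to nascent transposon transcripts, Aubergine is a cytoplasmic slicer found in nuage, the perinuclear granule of germ cells, and AGO3 is the slicer that works opposite Aubergine in the amplification cycle. The level of piwi was 269 and 234 CPM in the Caf40KD libraries, against 136 and 142 CPM in the bam libraries. The level of AGO3 was 269 and 255 CPM in Caf40KD, against 143 and 135 CPM in bam. The level of aub was 551 and 514 CPM in Caf40KD, against 369 and 353 CPM in bam. Each of the 3 genes was higher in both Caf40KD libraries than in either bam library. Among all genes tested 83.4% separated in this way, in either direction. Fitted log2 fold changes were 0.86 ± 0.08 for piwi (adjusted p 0.000532), 0.91 ± 0.06 for AGO3 (adjusted p 0.000178) and 0.56 ± 0.07 for aub (adjusted p 0.00127), where the error is the standard error of the edgeR quasi-likelihood fit to 2 libraries per group. Relative to the germline markers piwi was at 0.20 and AGO3 at 0.26, both called, and aub was at -0.10 and not called. In the BDGP6 annotation piwi and aub are neighbours on the minus strand of chromosome 2L, piwi from 10982205 to 10987420 and aub from 10997819 to 11001476, whereas AGO3 lies on chromosome 3L from 23554593 to 23689640.

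Ratios between 2 genes of the same library do not depend on how libraries are scaled. They still depend on the mix of cells where the 2 genes differ between cell types, and its part was not tested. Counts per kilobase of exon of AGO3 were 0.463 and 0.470 of those of aub in the Caf40KD libraries, against 0.368 and 0.363 in the bam libraries. Those of piwi were 0.480 and 0.446 of aub in Caf40KD, against 0.361 and 0.394 in bam. The balance among the Piwi protein transcripts thus differed between the groups, with a smaller part of aub in Caf40KD, although aub had the highest level of the 3 in every library. In all, 20 such ratios were computed, for pairs chosen after the values had been seen, and in 20 of them the groups did not overlap. Taken singly 83.4% of all genes tested separated, and no share over other pairs is given, so this count is not a result about these genes. With 2 libraries per group an exact two-sided permutation test cannot give a p below 0.333, so none is quoted for the ratios.

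Nuage and Tudor proteins gather around the nuclei of germ cells and bring the slicers together with their substrates. Of 6 genes, 5 were called higher, with a median of 0.57, beside 30.7% of all genes tested. Relative to the germline markers 1 was higher and 3 were lower, beside 6.67% and 64.6% of all genes tested. The largest change was in spn-E, which encodes a helicase with a Tudor domain needed for the amplification cycle. It stood at 367 and 325 CPM in the Caf40KD libraries, against 159 and 164 CPM in the bam libraries. This separation was larger than the spread within either group, with a log2 fold change of 1.10 ± 0.08 (adjusted p 0.00019) and a value of 0.44 relative to the germline markers. Next came krimp at 0.78, a scaffold that brings AGO3 and Aubergine together, and qin at 0.70, a Tudor protein that keeps the cycle running between different Piwi partners. The founding Tudor gene, tud, rose by 0.44.

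The smallest values among the nuage genes were those of tej and squ. Tejas, encoded by tej, carries a LOTUS domain and a Tudor domain and takes part in nuage assembly. Its level was 132 and 114 CPM in Caf40KD, against 98.0 and 93.9 CPM in bam, a log2 fold change of 0.36 ± 0.08 (adjusted p 0.0116) that was no longer called without bam replicate 2 (0.23, adjusted p 0.0680). On the germline scale tej (-0.30), like tud (-0.22), was called lower. The nuage component squ was at 21.4 and 20.7 CPM in Caf40KD, against 22.4 and 21.5 CPM in bam. Its Caf40KD libraries lay just below its bam libraries, and it was not called (log2 fold change -0.06, 95% confidence interval from -0.24 to 0.11), except as lower with no filter beyond 1 count (-0.21, adjusted p 0.0452) and on the germline scale (-0.72). Relative to aub the counts per kilobase of squ were 0.0853 and 0.0883 in Caf40KD, against 0.134 and 0.134 in bam. The annotation gives squ 223 exonic bases in common with grp on the same strand, so its reads are in part uncertain, as are those of other genes that overlap on the same strand.

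Tudor domains bind Piwi proteins through methylated arginines, and csul and vls encode the methyltransferase PRMT5 and its partner MEP50 that add these marks. Both rose, csul by 0.90 and vls by 0.56. Although the products act as a complex, csul was at 0.24 on the germline scale, which was called, and vls was at -0.10, which was not. Divided by the geometric mean of the germline markers, csul overlapped between the groups, at 0.720 and 0.773 in Caf40KD, against 0.740 and 0.651 in bam.

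**Figure D3:**
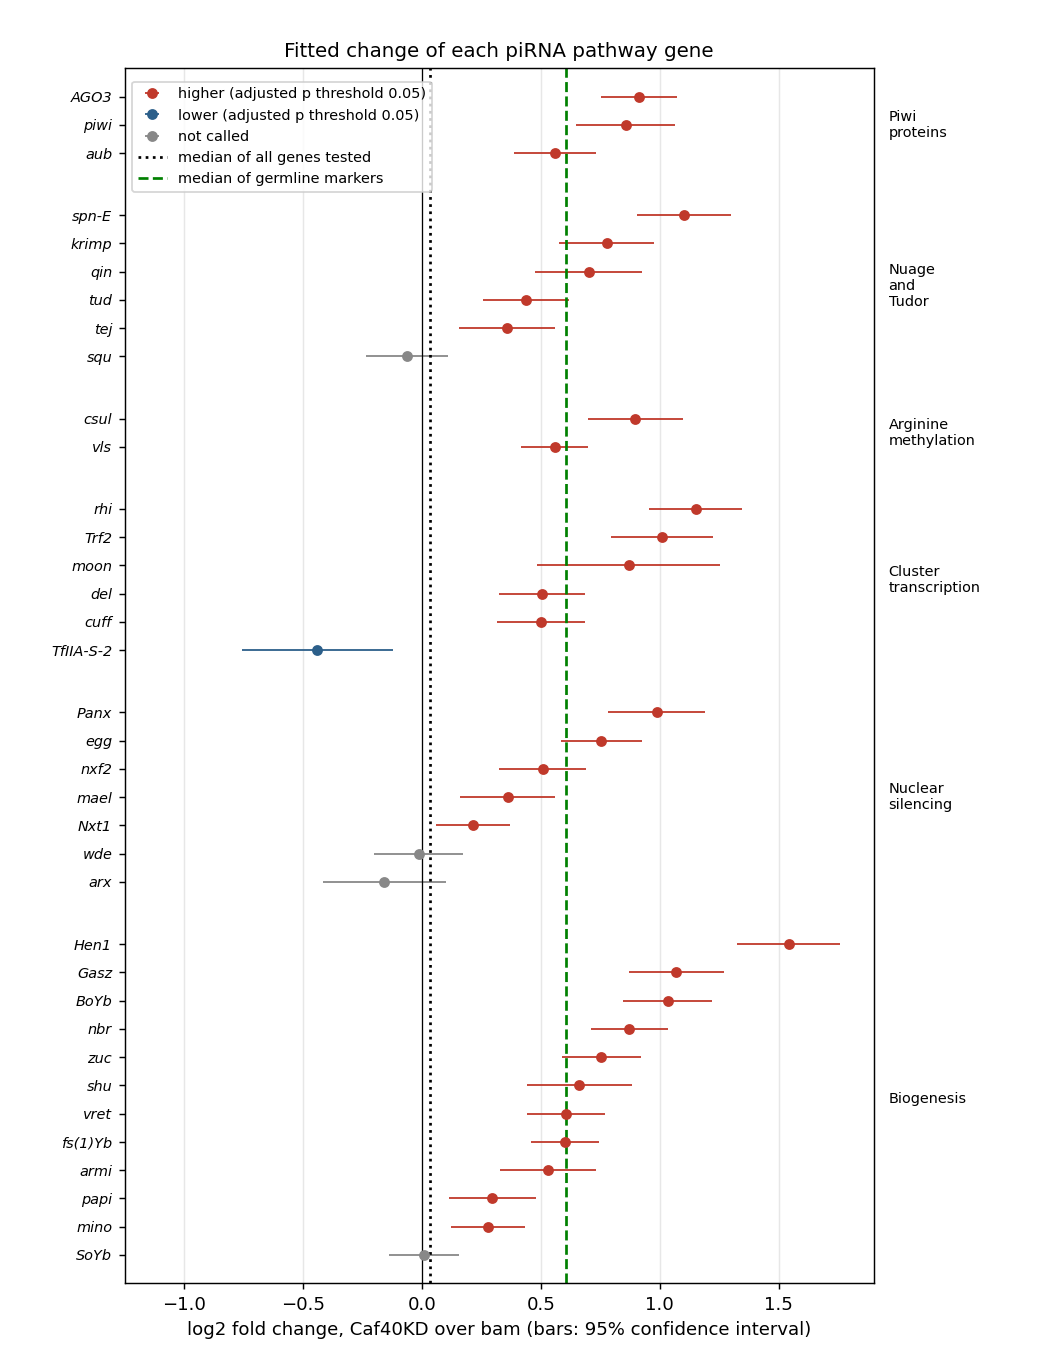
Fitted log2 fold change of Caf40KD over bam for each piRNA pathway gene with TMM scaling, with bars for the 95% confidence interval, grouped by role. The dotted line marks the median of all genes tested (0.03) and the dashed green line the median of the germline markers (0.61). Hen1 lies farthest to the right at 1.54 and TfIIA-S-2 farthest to the left at -0.44.

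Factors that transcribe piRNA clusters held both the second largest increase and the single gene called lower. Rhino, a heterochromatin protein related to HP1, marks dual-strand clusters and recruits Deadlock and Cutoff, and through them Moonshiner, a relative of the large TFIIA subunit that works with TfIIA-S-2 and Trf2 to start transcription inside heterochromatin. Of these 6 genes 5 were called higher, with a median of 0.69. Relative to the germline markers 2 were higher and 2 lower, beside 6.67% and 64.6% of all genes tested. The level of rhi was 135 and 140 CPM in the Caf40KD libraries, against 66.1 and 57.9 CPM in the bam libraries, a log2 fold change of 1.15 ± 0.08 (adjusted p 0.000162). It was also called relative to the germline markers, at 0.50. Its partners rose less, del by 0.50 and cuff by 0.50, and on the germline scale del was called lower at -0.15. Counts per kilobase of rhi were 1.88 and 2.18 times those of del in Caf40KD, against 1.35 and 1.23 times in bam, and 3.04 and 3.45 times those of cuff in Caf40KD, against 2.15 and 1.96 times in bam. The rhi transcript was therefore higher relative to the other subunits of its complex in each Caf40KD library than in either bam library. The annotation places 36 exonic bases of cuff opposite ERp60.

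The initiation factors that act with Rhino diverged. Trf2, which encodes a TBP-related factor with wide roles outside the pathway, was at 434 and 432 CPM in Caf40KD, against 200 and 230 CPM in bam, a log2 fold change of 1.01 ± 0.09 (adjusted p 0.000335). The least abundant of the 36 genes in CPM was moon, at 10.9 and 13.0 CPM in Caf40KD, against 6.73 and 6.34 CPM in bam, with a log2 fold change of 0.87 ± 0.15. It was no longer called without bam replicate 1 (0.83, adjusted p 0.0598) or without bam replicate 2 (0.74, adjusted p 0.0774). TfIIA-S-2, a paralog of the small TFIIA subunit, was the single gene called lower. It stood at 31.5 and 27.2 CPM in the Caf40KD libraries, against 43.8 and 35.9 CPM in the bam libraries, so the groups did not overlap but the spread within each was wide. The log2 fold change was -0.44 ± 0.13 (adjusted p 0.0270), and the call was lost under upper quartile scaling (-0.30, adjusted p 0.0694) and with a length correction (-0.29, adjusted p 0.133). It has 462 exonic bases on chromosome X, from 1011101 to 1011643.

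With TMM scaling the general TFIIA genes went the other way from this paralog, whereas on the germline scale they too were lower. TfIIA-S, the small subunit used at most promoters, was called higher at 0.28, TfIIA-L at 0.40 and Tbp at 0.23. The counts per kilobase of TfIIA-S-2 were 0.190 and 0.179 of those of TfIIA-S in the Caf40KD libraries, against 0.320 and 0.286 in the bam libraries. They were 5.08 and 3.68 times those of moon in Caf40KD, against 11.4 and 9.93 times in bam.

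Nuclear silencing had the lowest median of the 6 roles, 0.36, with 5 of 7 genes called higher and 0 called lower. Relative to the germline markers 1 was higher and 5 were lower. On that scale 6.67% of all genes tested were called higher and 64.6% lower. Panoramix, Nxf2 and Nxt1 form the complex that couples Piwi on nascent RNA to chromatin, Asterix, encoded by arx, binds Piwi, and Eggless with its cofactor Windei, encoded by wde, methylates histone H3 at lysine 9. The strongest change was that of Panx, at 36.7 and 32.7 CPM in Caf40KD, against 17.7 and 17.2 CPM in bam, a log2 fold change of 0.99 that stayed called on the germline scale at 0.33. In contrast nxf2, which has 630 exonic bases in common with a TART-A transposon on the same strand, rose by 0.51. Nxt1, which also serves general mRNA export, was at 93.0 and 86.5 CPM in Caf40KD, against 79.3 and 75.2 CPM in bam, a log2 fold change of 0.22 ± 0.06 (adjusted p 0.0277). The Nxt1 call was lost with DESeq2 (0.18, adjusted p 0.0708), with unstranded counts (0.14, adjusted p 0.106), with no filter beyond 1 count (0.07, adjusted p 0.284) and without bam replicate 1 (0.17, adjusted p 0.0684), bam replicate 2 (0.09, adjusted p 0.245) or Caf40KD replicate 1 (0.12, adjusted p 0.119). The call for mael, which acts downstream of Piwi in silencing, was lost without bam replicate 1 (0.26, adjusted p 0.0587). It stood at 128 and 110 CPM in Caf40KD, against 91.8 and 93.6 CPM in bam, a log2 fold change of 0.36. On the germline scale nxf2 (-0.15), Nxt1 (-0.44) and mael (-0.30) were called lower.

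Partners within nuclear silencing also separated. The level of egg was 283 and 258 CPM in the Caf40KD libraries, against 163 and 158 CPM in the bam libraries, a log2 fold change of 0.75 ± 0.07 (adjusted p 0.000417). Its cofactor wde was at 413 and 373 CPM in Caf40KD, against 402 and 393 CPM in bam, and these overlapped (log2 fold change -0.01, 95% confidence interval from -0.20 to 0.17). Counts per kilobase of wde were 1.19 and 1.17 times those of egg in Caf40KD, against 2.00 and 2.02 times in bam, so the ratio was tight within each group and far apart between them. The level of arx was 33.5 and 28.8 CPM in Caf40KD, against 36.8 and 32.8 CPM in bam, also overlapping (log2 fold change -0.16, interval from -0.42 to 0.10). Relative to Panx, arx was at 2.04 and 1.96 in Caf40KD, against 4.62 and 4.23 in bam. Without Caf40KD replicate 1, the library with the highest level of accessory gland RNA, arx (-0.32, adjusted p 0.00785) and wde (-0.13, adjusted p 0.0481) were called lower, as they were with no filter beyond 1 count (arx -0.31, adjusted p 0.0257, and wde -0.16, adjusted p 0.0318). On the germline scale both were also called lower, arx at -0.82 and wde at -0.67. With upper quartile scaling wde was called higher instead (0.13, adjusted p 0.0249), so no direction can be given for it.

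**Figure D4:**
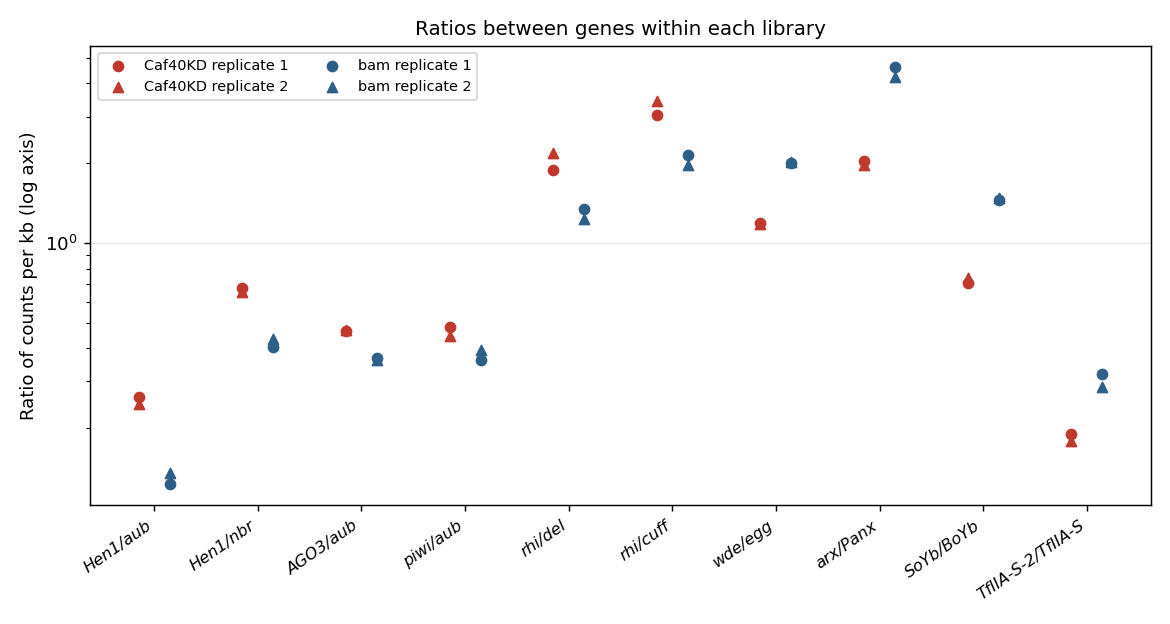
Ratios of counts per kilobase of exon between pairs of genes within each library, on a log axis, with Caf40KD libraries in red and bam libraries in blue. The first gene named is divided by the second. Hen1 over aub is 0.262 and 0.247 in Caf40KD, against 0.123 and 0.136 in bam, and wde over egg is 1.19 and 1.17 in Caf40KD, against 2.00 and 2.02 in bam. The pairs were chosen after the values had been seen, and the groups do not overlap in any pair shown.

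The 12 biogenesis genes act in steps, from the Yb bodies and mitochondrial surface, where Armitage and Zucchini process long precursors, to the trimming and methylation of piRNA ends. Of these, 11 were called higher, with a median of 0.63. Relative to the germline markers 4 were higher and 4 lower, beside 6.67% and 64.6% of all genes tested. Hen1, which methylates the last nucleotide of piRNAs and of siRNAs, had the largest change of all 36. Its level was 75.3 and 66.2 CPM in the Caf40KD libraries, against 23.6 and 25.0 CPM in the bam libraries, a log2 fold change of 1.54 ± 0.09, or 2.91-fold (adjusted p 9.46e-05). Relative to the germline markers Hen1 was at 0.88 and still called, and across all genes tested it ranked at the 90.6th percentile of log2 fold change. Nibbler, the exonuclease encoded by nbr that trims piRNAs before Hen1 acts, rose by 0.87. Hen1 counts per kilobase were 0.676 and 0.655 of those of nbr in Caf40KD, against 0.405 and 0.433 in bam. Hen1 also serves the siRNA pathway, whose Argonaute AGO2 was called lower at 271 and 275 CPM in Caf40KD, against 393 and 401 CPM in bam, a log2 fold change of -0.54.

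Among the mitochondrial factors, Gasz, the outer membrane scaffold that holds Armitage near Zucchini, was at 102 and 88.3 CPM in Caf40KD, against 45.6 and 44.9 CPM in bam. Its log2 fold change was 1.07 ± 0.08 (adjusted p 0.000218), and it stayed at 0.41 relative to the germline markers. The endonuclease gene zuc rose by 0.76 and the helicase gene armi by 0.53. In the annotation used here 4145 of the 4162 exonic bases of armi also belong to CG46463 on the same strand, a gene not among those counted, so the reads of the pair cannot be told apart. Minotaur, encoded by mino, is related to glycerol-3-phosphate acyltransferases, and its level was 244 and 227 CPM in Caf40KD, against 193 and 195 CPM in bam, a log2 fold change of 0.28 ± 0.06 (adjusted p 0.0112). Papi, a Tudor protein of mitochondria, was at 73.3 and 64.9 CPM in Caf40KD, against 56.0 and 56.4 CPM in bam, a log2 fold change of 0.30 ± 0.07 (adjusted p 0.0165). The papi call was lost with no filter beyond 1 count (0.15, adjusted p 0.0554), without bam replicate 1 (0.20, adjusted p 0.103) and without bam replicate 2 (0.21, adjusted p 0.0989). On the germline scale armi (-0.13), mino (-0.38) and papi (-0.36) were called lower. Members of this role that share a place in the cell thus spanned, with TMM scaling, the range from 0.28 to 1.07. Relative to Gasz, papi was at 0.510 and 0.521 in Caf40KD, against 0.872 and 0.890 in bam.

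The Yb family separated in the same manner. Yb itself, encoded by fs(1)Yb and known for Yb bodies of somatic gonad cells, rose by 0.60, at 80.7 and 77.7 CPM in Caf40KD, against 51.1 and 53.4 CPM in bam. Summed levels of the 10 cyst and hub markers were 379 and 322 CPM in Caf40KD, against 627 and 635 CPM in bam, so fs(1)Yb moved opposite to most of these somatic genes. Its relative BoYb was at 63.0 and 58.1 CPM in Caf40KD, against 30.5 and 28.7 CPM in bam, a log2 fold change of 1.03 ± 0.07 (adjusted p 0.000198), whereas SoYb was at 61.2 and 58.9 CPM in Caf40KD, against 60.9 and 58.4 CPM in bam. SoYb overlapped between the groups, with a log2 fold change of 0.01 and a 95% confidence interval from -0.14 to 0.16. With upper quartile scaling it was called higher at 0.15 and on the germline scale it was called lower at -0.65. Counts per kilobase of SoYb were 0.704 and 0.734 of those of BoYb in Caf40KD, against 1.45 and 1.48 in bam, so the order of the pair was reversed between the groups. The Tudor gene vret rose by 0.61 and shu, which encodes a co-chaperone for loading Piwi proteins, by 0.66.

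Levels of different genes were compared per kilobase of exon. In Caf40KD the highest mean levels were those of aub at 177 CPM per kilobase, Nxt1 at 166, shu at 121 and krimp at 116, and in bam those of Nxt1 at 143, aub at 120, TfIIA-S-2 at 86.2 and wde at 81.8. The lowest were SoYb at 12.2, moon at 14.7 and squ at 15.3 in Caf40KD, and moon at 8.06, BoYb at 8.31 and Panx at 8.80 in bam. The order was largely kept. Spearman's rho between the group means over the 36 genes was 0.876, as a description, since all values of a group come from the same libraries. The largest moves in rank were those of rhi, at 5 in Caf40KD and 18 in bam, and TfIIA-S-2, at 16 in Caf40KD and 3 in bam, counted from the highest. The change of a gene had little relation to its exonic length, with a rho of 0.0968 over the 36 genes.

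**Figure D5:**
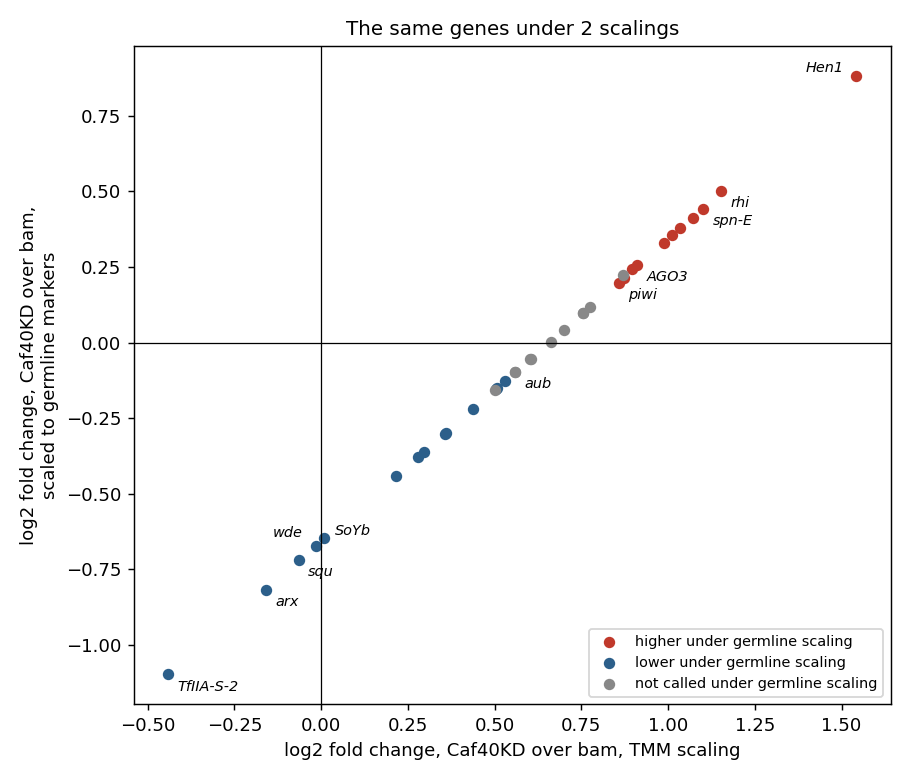
Log2 fold change of Caf40KD over bam for the 36 piRNA pathway genes with TMM scaling, on the horizontal axis, and with scaling to the germline markers, on the vertical axis. Red points were called higher on the germline scale (11 genes), blue points lower (14 genes) and grey points were not called (11 genes). Hen1 is highest on both scales, at 1.54 and 0.88, and TfIIA-S-2 lowest, at -0.44 and -1.10.

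Other proteins that serve the pathway or transposon silencing, listed separately, changed in the same direction to a lesser extent. Of 31 tested, 18 were called higher and 2 lower, with a median of 0.34, beside 30.7% and 33.0% of all genes tested. On the germline scale 3 were higher and 23 lower, with a median of -0.32, beside 6.67% and 64.6% of all genes tested. Many of them also have general roles in chromatin, SUMO conjugation, mRNA export or protein folding. The largest increases were in nxf3, the export receptor for cluster transcripts, at 170 and 161 CPM in Caf40KD, against 76.5 and 72.4 CPM in bam (log2 fold change 1.15), and in daed, a mitochondrial partner of Gasz, at 1.07. HP1c rose by 0.80 and Hop, a co-chaperone of Hsp90, by 0.77. The genes called lower were eff at -0.31, a ubiquitin-conjugating enzyme, and me31B at -0.26, an RNA helicase of germline granules. The general mRNA export receptor sbr, the counterpart of nxf2 and nxf3, was called lower at -0.41, whereas AGO1, the Argonaute of microRNAs, was not called at 0.13.

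Few reads were assigned to piRNA source loci and none to their Stellate targets. None of the 14 annotated Stellate copies had a count in any library. Reads that map to several places were not counted, so these zeros say nothing of Stellate expression. Copies of Suppressor of Stellate summed to 19 and 24 counts in the Caf40KD libraries, against 140 and 98 in the bam libraries, with 18 of 34 copies counted at all. Scaled for depth the sums were 0.631 and 0.827 CPM in Caf40KD, against 1.24 and 1.05 CPM in bam. Su(Ste):CR40820 had 0 counts in both Caf40KD libraries, against 39 and 20 in the bam libraries. Its bam mean of 0.279 CPM was 5.51 times the floor of 3 counts over both Caf40KD libraries, 0.0507 CPM. Su(Ste):CR42418 had 8 and 11 counts in Caf40KD, against 39 and 39 in bam, which is 0.266 and 0.379 CPM in Caf40KD, against 0.344 and 0.419 CPM in bam, and was not called. Su(Ste):CR42410 had 0 and 1 counts in Caf40KD, against 25 and 10 in bam. Su(Ste):CR42407 went the other way, at 0.299 and 0.241 CPM in Caf40KD, against 0.0618 and 0.0966 CPM in bam, from 7 to 9 counts in each library, and was not called (adjusted p 0.0674). The copies are near-identical, so values of single copies are uncertain. The flamenco locus, flam, a somatic cluster, had 0 counts in both Caf40KD libraries, against 20 and 11 in bam. Its bam mean of 0.147 CPM was 2.90 times the floor of 0.0507 CPM. Neither multiple takes account of the counting error of the bam reads. Reads that map to several places are missing for flam too.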

How the data were processed

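The authors trimmed reads with Trim Galore, aligned them with STAR to dm6, and deposited raw STAR counts per gene for each library of a strand-specific poly(A) kit. Tool versions are not given in the sources used here. Deposited counts on the strand the kit reads were used. Entries naming no gene, 30.7% and 30.8% of reads in Caf40KD and 28.9% and 26.9% in bam, were left out. The authors' DESeq2 results table holds their own comparison, and 4 columns of a normalised table, headed wild type at 0 h where the labels give bam mutant at 48 h, could not all be matched, so neither was used. Groups came from the sample titles.

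Genes were filtered with filterByExpr, scaled by TMM and tested with edgeR 4.0.16 (R 4.3.3), quasi-likelihood, two-sided, with Benjamini-Hochberg adjustment over 10854 genes and group as the only term. The standard error is the log2 fold change divided by the square root of F. The fit was tested on simulated data. Symbols, coordinates and exonic lengths came from Ensembl release 115 of BDGP6 and covered 17253 of 17559 identifiers. The identifiers of vas, sov and wupA were not among those counted. The names Tdrd5p, eIF4E-HT, Nxf1, Art5 and Acp70A matched no symbol, so the other lists lack these genes. Limits and intervals from counts cover counting error only. The genes and lists were chosen with earlier results of these data known. Values in every library were to be given for the Piwi proteins, the 6 called genes with the largest and the 6 with the smallest log2 fold change, and genes called against their role, and up to 4 called genes with the largest change from each other list were to be named, with all source loci of at least 10 counts in a library. For accessory gland and ovary genes no names are given (11 of 11 and 1 of 2 tested genes were called higher). Per-library values for the genes that were not called and for Panx, egg, moon, fs(1)Yb and AGO2 were added after values were seen. Alternatives were other scalings, filters and counts, DESeq2 1.42.0, thinned bam libraries, a replicate block and omission of each library. A length correction was chosen after seeing the data.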

Additional observations from a re-analysis of the deposited data

Results flagged for a closer look

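Reads on the strand opposite to a gene were not used in the comparisons. In 4 piRNA pathway genes with at least 10 such reads in each Caf40KD library, their share of the stranded reads was higher in both Caf40KD libraries than in either bam library. For mino, which lies opposite 3 other annotated genes over 1666 exonic bases, the share was 2.49% and 2.61% in Caf40KD, against 1.71% and 1.55% in bam. For papi it was 0.765% and 0.842% in Caf40KD, against 0.392% and 0.247% in bam. For fs(1)Yb it was 0.573% and 0.617%, from 14 reads in each Caf40KD library, against 0.0864% and 0.380% in bam, from 5 and 19 reads. For armi it was 0.205% and 0.324% in Caf40KD, against 0.110% and 0.0627% in bam. At the same minimum, 16 of the 36 genes could be compared, and 7 had a lower share in both Caf40KD libraries: piwi, vls, cuff, egg, zuc, Hen1 and nbr. For piwi it was 1.16% and 1.02% in Caf40KD, against 4.19% and 3.86% in bam, and for cuff 8.66% and 9.47% in Caf40KD, against 13.1% and 14.8% in bam. Among 3087 tested genes that met the minimum the share was higher in 46.1% and lower in 34.3%. The minimum was set on the Caf40KD libraries alone, so it favoured genes with more such reads there, among the 36 and the 3087 alike. These counts therefore do not show which direction was more common. None of these differences was tested.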

How the results depend on the processing

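The calls of the 36 piRNA pathway genes stayed the same with DESeq2 size factors, library size alone, at least 10 counts in every library and thinned bam libraries. Upper quartile scaling moved the median of all genes by 0.15 and the share of calls that were higher to 57.4%, and no filter beyond 1 count moved them by -0.15 and to 38.3%, beside 48.2% in the main analysis. Scaling to the germline markers gave 9.36%, with 724 genes higher and 7007 lower. The causes of these shifts were not tested. Medians are listed where they moved by more than 0.105, the SD between replicates of a typical log2 ratio.

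On the germline scale 11 piRNA pathway genes were higher and 14 lower, with a median of -0.054. Medians by role were 0.20 (Piwi proteins), -0.089 (nuage and Tudor), 0.072 (arginine methylation), 0.034 (cluster transcription), -0.30 (nuclear silencing) and -0.026 (biogenesis). The other piRNA factors had 3 higher, 23 lower and a median of -0.32, and 4 germline markers were higher. Directions turned for aub (-0.10), tej (-0.30), tud (-0.22), vls (-0.10), cuff (-0.16), del (-0.15), nxf2 (-0.15), Nxt1 (-0.44), mael (-0.30), armi (-0.13), mino (-0.38), vret (-0.053), SoYb (-0.65), fs(1)Yb (-0.055) and papi (-0.36). Of these, aub, vls, cuff, vret and fs(1)Yb were not called there.

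With upper quartile scaling 0 of the 36 genes were lower and wde turned to 0.13, called higher. The median was 0.75, and by role 1.00 (Piwi proteins), 0.71 (nuage and Tudor), 0.87 (arginine methylation), 0.83 (cluster transcription), 0.50 (nuclear silencing) and 0.78 (biogenesis). The other piRNA factors had a median of 0.48 and 1 lower. With no filter beyond 1 count 4 of the 36 were lower and the median was 0.45. By role it was 0.71 (Piwi proteins), 0.42 (nuage and Tudor), 0.58 (arginine methylation), 0.54 (cluster transcription), 0.21 (nuclear silencing) and 0.48 (biogenesis), and the other piRNA factors had 0.15 and 6 lower. With the length correction, chosen after seeing the data, 0 were lower and the median was 0.77. By role it was 1.05 (Piwi proteins), 0.73 (nuage and Tudor), 0.49 (nuclear silencing) and 0.77 (biogenesis), and the other piRNA factors had 0.54 and 0 lower. Without division by length the ratio of AGO3 to aub in Caf40KD was 0.492 instead of 0.467.

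Leaving out 1 library at a time gave 27 to 31 of the 36 genes higher and 1 to 3 lower, the 3 without Caf40KD replicate 1, and a median from 0.49 to 0.65. Where a group kept 1 library, that library was assumed to vary like the other group. Medians ran from 0.71 to 0.95 (Piwi proteins), 0.43 to 0.66 (nuage and Tudor), 0.60 to 0.77 (arginine methylation), 0.56 to 0.67 (cluster transcription), 0.21 to 0.46 (nuclear silencing) and 0.51 to 0.73 (biogenesis). The other piRNA factors had medians from 0.23 to 0.39, with 16 to 21 higher and 2 to 5 lower. Over all genes 1915 to 4042 were higher and 3068 to 4233 lower, with the fewest higher without bam replicate 2, and 5004 to 8275 were called in all.

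The same replicate numbers in both groups gave no pairing, since the labels tie nothing to them and there are only 2 pairs. A replicate block left 31 of the 36 genes higher and 1 lower, with 3258 and 3534 over all genes, and the correlation across genes of the deviations of same-numbered libraries was 0.264. Of the 36 genes, 34 were higher in Caf40KD replicate 1 than in replicate 2 with TMM scaling, by a median of 0.14 on the log2 scale, whereas their summed share of the gene counts was 0.656% and 0.650%.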
